A study of Neurospora crassa with 112 samples.

Results

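The genes described here are the 100 genes of Neurospora crassa, a filamentous fungus, whose mRNA levels followed most closely the level of cse-1 (NCU04379) across strains. They were chosen by the highest Spearman rank correlation with cse-1 over the libraries described below, on log2(RPKM + 1), among the 6786 other genes whose mean reached 5 RPKM, out of 9733 genes measured. RPKM is the number of reads on a gene scaled by its length in kilobases and by the mapped reads of the library. The correlation with cse-1 therefore defines the members and is given below as a description, with no test.

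cse-1 encodes a homolog of neuronal calcium sensor-1 of animals and of Frq1 of budding yeast. Proteins of this family bind calcium through EF-hands and sit on membranes through a lipid anchor. In budding yeast Frq1 binds and activates the phosphatidylinositol 4-kinase Pik1 at the Golgi, which makes a lipid needed for secretion. In N. crassa the gene was studied for its part in the communication between germinating spores that grow towards each other and fuse.

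Messenger RNA was sequenced from mycelia, the mature hyphal network, of 112 wild-type strains, grown for 16 h on the same medium. Strains carry names of 3 series, with 72 JW strains, 10 D strains and 30 strains with a stock centre (FGSC) number. No strain was treated or engineered. Each strain name stands on 1 column and no second culture is listed for any strain. A difference between strains, a difference between cultures and a difference between libraries therefore cannot be told apart. In 4 pairs of strains, described below, both columns share their library total and most of their values.

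Library totals, recovered from the RPKM values as the reads on genes, ran from 4174767 to 30748165 reads. In the libraries used they were 8366944 to 29804014 (median 19835136) in JW libraries, against 4174767 to 30748165 (median 12177667) in D or FGSC libraries. The columns of 4 pairs of strains, each a D strain and an FGSC strain, held the same value for 87.2 to 89.7% of genes and were averaged as 1 library each. The library of strain 2489, a laboratory strain that the labels list with the wild isolates, was left out by the rule, which leaves 72 JW libraries and 35 D or FGSC libraries. The median Pearson correlation of a library with the others was 0.932 in the middle library. It was lowest in JW234 (0.852), 4457 (0.867), JW160 (0.867), JW224 (0.889) and 4459 (0.891). Leaving out these 5 libraries kept 80 of the 100 members. Of 9 conidiation genes listed, which mark asexual spore formation, con-8 was not among the measured genes. The summed level of the others was 213 to 22214 RPKM in JW libraries and 274 to 124152 RPKM in D or FGSC libraries. The 7 of them that passed the filter had a median correlation of 0.16 with cse-1, against 0.11 over all genes, and none was a member. The part of spore formation in the results below was not tested.

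cse-1 itself varied little. It was present at 218, 298 and 391 RPKM (lowest, median and highest) in JW libraries, against 192, 309.7 and 407 RPKM in D or FGSC libraries. The 2 ranges overlapped nearly throughout, and the lowest value was in 4465 and the highest in 4457. The standard deviation of log2(RPKM + 1) was 0.21, and 665 to 6374 reads per library stood behind each value. The error expected from these read counts made up 1.93% of the variance.

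The members had correlations with cse-1 of 0.41 to 0.57 (median 0.45), against a median of 0.11 in the other 6686 genes, whose correlations ran from -0.47 to 0.41. A positive correlation with cse-1 was common, with 4996 of all 6786 genes above 0. The libraries had not been scaled to each other beyond their totals, and the median of log2(RPKM + 1) over genes ranged from 4.68 to 5.21 between libraries. cse-1 correlated with that library median at 0.41, and the mean standardised level of the members did so at 0.77 and with cse-1 at 0.71. These are descriptions over libraries that share their scaling. After each library was centred on its median, the members' median correlation with cse-1 was 0.29 and that of all genes 0.00, all 100 members stayed positive, and 42 of the 100 were still among the 100 highest.

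The limit at 100 members was not a gap. Among the last members were NCU09888, NCU09715, NCU04516 and NCU04783, all at 0.41. The genes just outside it were vma-9 (NCU07681), NCU07967, NCU01777, vma-4 (NCU07446) at 0.41 and NCU07273 at 0.40. At the other end of the table were NCU03757 (-0.47), NCU03737 (-0.46), NCU06451 (-0.45), tom20 (NCU06632, -0.44), a receptor of the mitochondrial protein import machinery, and NCU06246 (-0.44).

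**Figure D1:**
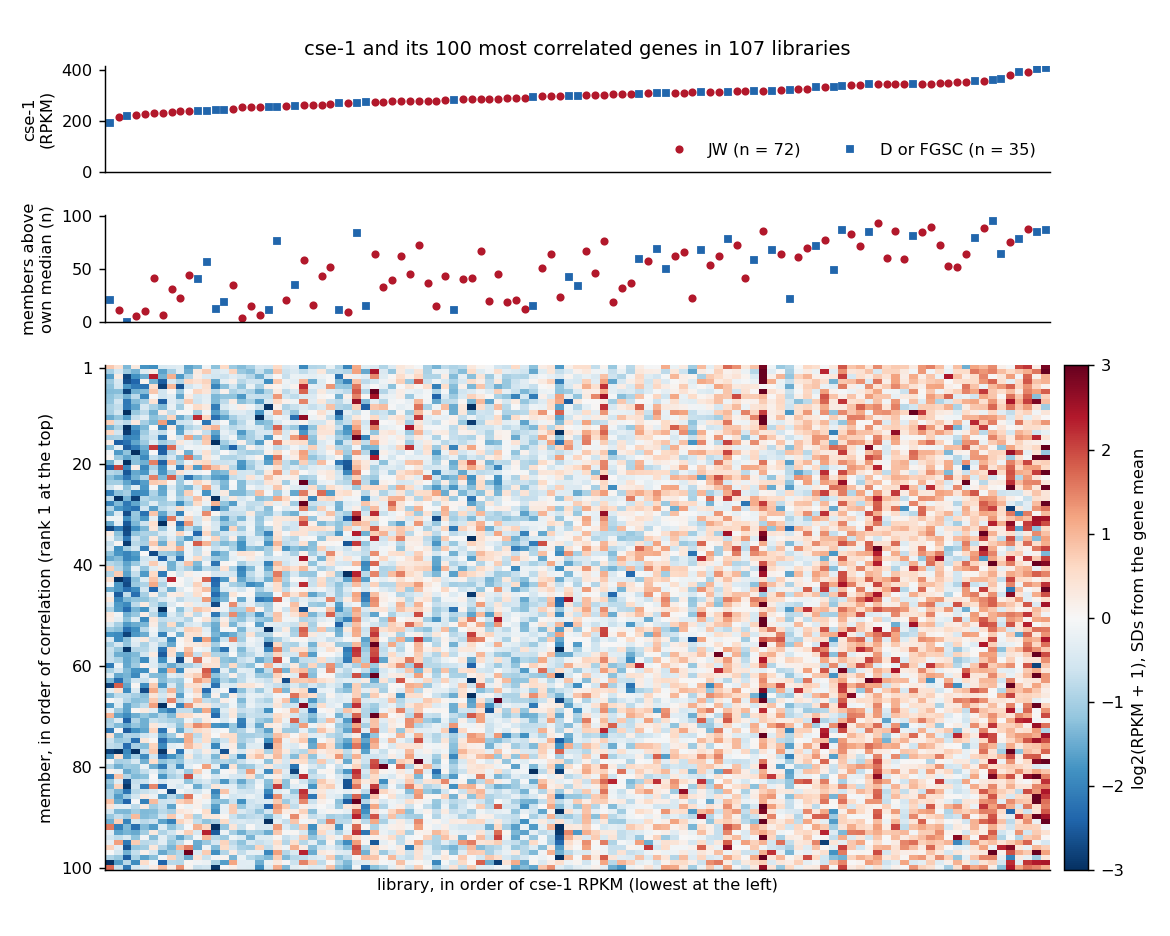
Level of cse-1 in RPKM (top), number of the 100 members above their own median (middle) and log2(RPKM + 1) of each member in standard deviations from its mean (bottom, colours end at 3), with the libraries in order of cse-1. Red circles are JW libraries (n = 72) and blue squares D or FGSC libraries (n = 35). Counts of members above their median ran from 0 in 4452 to 96 in 4469.

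Library by library, the members moved as a block with exceptions. In 4452, where cse-1 was among the 3 lowest at 222 RPKM, 0 of 100 members were above their own median. JW250 followed with 4, JW5 with 6 and JW7 with 7. At the upper end, 96 members were above their median in 4469, 94 in JW27 and 90 in JW218. JW199 had the sixth lowest cse-1 (233 RPKM) and yet 42 members above their median. In 4457, where cse-1 was highest, the number was 87. The library 4452 also had the second lowest median over all genes. Without it, 97 of the 100 members were kept.

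Single libraries held many of the extreme values. JW224 was the highest library for 23 of the 100 members, against 4.45% of all genes, and for 7 of the 20 members with the highest correlation. 4452 was the lowest library for 19 members, against 3.27% of all genes. JW224 is among the 5 libraries least like the rest, and its cse-1 level of 319.6 RPKM ranked 75 from the lowest.

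The member with the highest correlation (0.57), NCU11350, had 207, 292 and 502 RPKM in JW libraries, against 231, 312 and 499 RPKM in D or FGSC libraries. The 2 series overlapped in nearly all of this range. NCU00026 (0.55) had 5.45, 12.4 and 161 RPKM in JW libraries, against 5.62, 12.8 and 71.1 RPKM in D or FGSC libraries. Most libraries lay near the low end and JW224 stood highest. NCU03889 (0.55) had 92.0, 135 and 339 RPKM in JW libraries, against 75.9, 132 and 205 RPKM in D or FGSC libraries. Its lowest value was in 4452 and its highest in JW224. NCU11350 was not found in the gene table used, and no role is annotated there for NCU00026 and NCU03889.

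NCU03889 and NCU03888 (0.53) are neighbours on chromosome VI and their gene models do not overlap. NCU03888 had 73.9, 97.0 and 237 RPKM in JW libraries, against 57.9, 98.2 and 142 RPKM in D or FGSC libraries, with its extremes in the same 2 libraries. The correlation between the 2 genes was 0.65. The only other pair of members that are neighbours, NCU01165 and mcb (NCU01166) on chromosome V, had a correlation of 0.44. The nearest genes on either side of cse-1 were not members: NCU04380 had a correlation of 0.11 with cse-1 and NCU04378 of 0.21.

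NCU00435, NCU11658, NCU11649, NCU11529 and NCU11109 completed the leading 10, with correlations of 0.53, 0.53, 0.52, 0.52 and 0.50. Ranks 11 to 19 were held by NCU01974, NCU01444, NCU06404, NCU03786, NCU09000, NCU06631, NCU06742, NCU04652 and NCU04558, at 0.50 to 0.47. Of the 6 alternative lists (median centring, quantile normalization, library total held fixed, first principal component removed, JW libraries alone, and D and FGSC libraries alone), all 6 kept NCU03889, NCU00435, NCU03888 and NCU11649. A further 25 members, among them amph-1, atg-8 and tpm, were kept by 5, and 4 members were kept by none.

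Of the 100 members, 92 were found in the RefSeq gene table and 16 carry a gene symbol (16%, against 14.3% of the other genes). Those reported here are described next by role. Where gene models overlap, unstranded reads of the partners cannot be told apart, and 29 of the 92 placed members (31.5%) overlap another gene model, against 28.2% of all placed genes.

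The members with symbols that act on membranes and the actin cytoskeleton were led by amph-1 (NCU01069, correlation 0.54), named for amphiphysin, a BAR domain protein that in animals and yeasts acts in endocytosis. It had 68.1, 109 and 217 RPKM in JW libraries, against 65.4, 118.5 and 153 RPKM in D or FGSC libraries. The series overlapped, with 4452 lowest and JW224 highest. The gene tpm (NCU01204, 0.47) encodes tropomyosin, which binds along actin filaments. It had 873, 1212 and 1683 RPKM in JW libraries, against 888, 1303 and 1484 RPKM in D or FGSC libraries, a narrow range for a highly expressed gene.

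atg-8 (NCU01545, 0.47) encodes the ubiquitin-like protein that is attached to the membranes of autophagosomes. It had 687, 1206 and 1808 RPKM in JW libraries, against 591, 1194 and 1586 RPKM in D or FGSC libraries, and was lowest in 4452 and highest in JW256. vma-11 (NCU00667, 0.42) encodes a membrane subunit of the vacuolar proton pump. It had 172, 228 and 384 RPKM in JW libraries, against 163, 234 and 409 RPKM in D or FGSC libraries. For both genes the ranges of the series overlapped.

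The signalling genes among the members were gna-3 (NCU05206, 0.46), an alpha subunit of heterotrimeric G proteins, and mcb (NCU01166, 0.43), the regulatory subunit of cAMP-dependent protein kinase. gna-3 had 12.5, 29.1 and 46.2 RPKM in JW libraries, against 13.4, 28.2 and 48.96 RPKM in D or FGSC libraries. Its lowest value was in JW252, where cse-1 was among the 5 highest, and its correlation was 0.34 within JW libraries and 0.66 within D or FGSC libraries. mcb had 75.3, 105 and 161 RPKM in JW libraries, against 72.1, 102 and 174 RPKM in D or FGSC libraries. The serine/threonine kinase genes stk-49 (NCU07062, 0.46) and stk-13 (NCU00108, 0.43) were lower, with medians of 19.4 and 18.2 RPKM in JW libraries, against 20.1 and 20.7 RPKM in D or FGSC libraries. mob-1 (NCU01605, 0.42), of a family of kinase activators, had 39.9, 78.1 and 129 RPKM in JW libraries, against 36.8, 83.2 and 129.5 RPKM in D or FGSC libraries.

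Other members with symbols were mus-8 (NCU09731, 0.43), the homolog of the ubiquitin-conjugating DNA repair enzyme RAD6 of yeast, sor-4 (NCU02582, 0.44), known also as rco-3 and encoding a protein of the sugar transporter family, smco-7 (NCU03616, 0.46), named for a semicolonial growth form, ada-2 (NCU02017, 0.46) and cac-1 (NCU04198, 0.45). mus-8 had 141, 215 and 322 RPKM in JW libraries, against 134, 211 and 303 RPKM in D or FGSC libraries. ada-2 had 90.7, 145 and 202 RPKM in JW libraries, against 80.5, 127 and 189 RPKM in D or FGSC libraries. The series overlapped for both genes.

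The members also correlated with each other, in the same libraries that chose them. Over the 4950 pairs of members the median correlation was 0.38 (-0.04 to 0.85) and 6 pairs were negative, where the mean over pairs was 0.39, against 0.04 over pairs of all genes. Members chosen for 1 shared partner must correlate with each other to some degree, so these values are descriptions. The closest pairs, named here after their values were seen, were NCU02765 with NCU07061 (0.85), NCU02765 with NCU09715 (0.85), NCU07061 with NCU09821 (0.82) and amph-1 with NCU03312 (0.82). mob-1 was closest to NCU08677 (0.79), atg-8 to NCU10658 (0.73) and mus-8 (0.73), and gna-3 to NCU01165 (0.72).

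NCU02765 was the most variable member. It had 56.4, 344 and 1326 RPKM in JW libraries, against 90.5, 345 and 2110.3 RPKM in D or FGSC libraries. NCU07061 had 8.60, 46.4 and 304 RPKM in JW libraries, against 17.2, 38.1 and 328 RPKM in D or FGSC libraries. Both genes, NCU09821, NCU09715 and NCU03312 were all highest in 4459. Such wide ranges were rare: 9 members (9%) had a standard deviation over 0.5 on the log2 scale, against 25.7% of the other genes, and the median was 0.27 in members and 0.34 in the other genes. Members were also higher, with a median of the mean level of 61.99 RPKM against 31.3 RPKM in the other genes, and had shorter coding sequences, with medians of 1035 bases against 1356 bases. Counting error made up a median of 3.13% of the members' variance, against 2.72% in the other genes.

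The correlations within each series are part of the values that chose the members and are given as a description. Within the 72 JW libraries the members' median was 0.43 (0.26 to 0.59), against 0.09 in the other genes. Within the 35 D or FGSC libraries it was 0.47 (0.18 to 0.72), against 0.12 in the other genes. All 100 members were positive in both. A list of 100 drawn from JW libraries alone shared 56 genes with the members, and one from D or FGSC libraries alone shared 23.

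**Figure D2:**
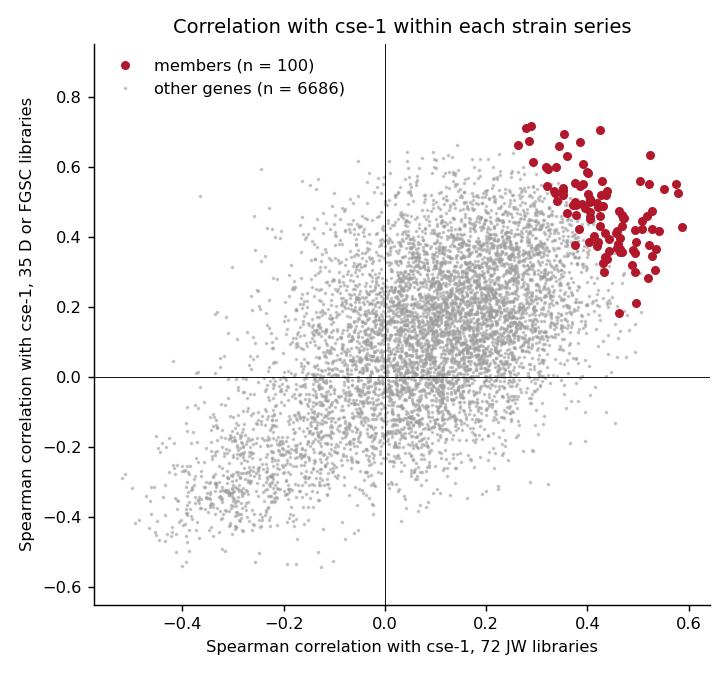
Spearman correlation of each gene with cse-1 within 72 JW libraries (x axis) and within 35 D or FGSC libraries (y axis), for the 100 members (red) and 6686 other genes (grey). The members, chosen on all these libraries together, lie at 0.26 to 0.59 on the x axis and at 0.18 to 0.72 on the y axis.

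Because cse-1 correlated with the library total at 0.18, the members were set against this total of reads on genes. Their median correlation with the total was 0.09, with 72 of 100 positive, against -0.04 in the other genes, of which 43.9% were positive. With the log2 library total held fixed, the members' partial correlations with cse-1 were 0.37 to 0.61 (median 0.44), and 78 of the 100 members remained among the 100 highest. A limma fit of log2(RPKM + 1) on the log2 library total, adjusted by Benjamini-Hochberg over 6787 genes, called 20 members, all with a positive slope, where 11.8% of all genes were called with a positive and 13.2% with a negative slope, 25% in either direction. The smallest adjusted p-values were those of NCU09821 (slope 0.52 per doubling of the total, SE 0.13, adjusted p = 0.00262), NCU04516 (0.19, SE 0.049, adjusted p = 0.00287) and NCU03874 (0.10, SE 0.028, adjusted p = 0.00422). mcb, vma-11, atg-8, ada-2 and sor-4 were among the 20, with slopes of 0.12, 0.12, 0.14, 0.12 and 0.12. The smallest p-values with a negative slope were those of NCU06704, NCU09888 and NCU11741, with slopes of -0.06, -0.05 and -0.05 that did not pass. cse-1 did not pass (0.055, SE 0.032, adjusted p = 0.203), whereas with strain 2489 kept its slope was 0.096 and passed (adjusted p = 0.0284). Within JW libraries alone 0 members were called by limma and 11 had an unadjusted p under 0.05, against 823 called and 1928 with an unadjusted p under 0.05 among all 6787 genes. By voom in limma on the recovered reads of both series 16 members were called, against 1441 of all 6787 genes. Other settings called more members, with 29 after median centring (1721 genes in all) and 22 with the strain series as a covariate (1352 genes).

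**Figure D3:**
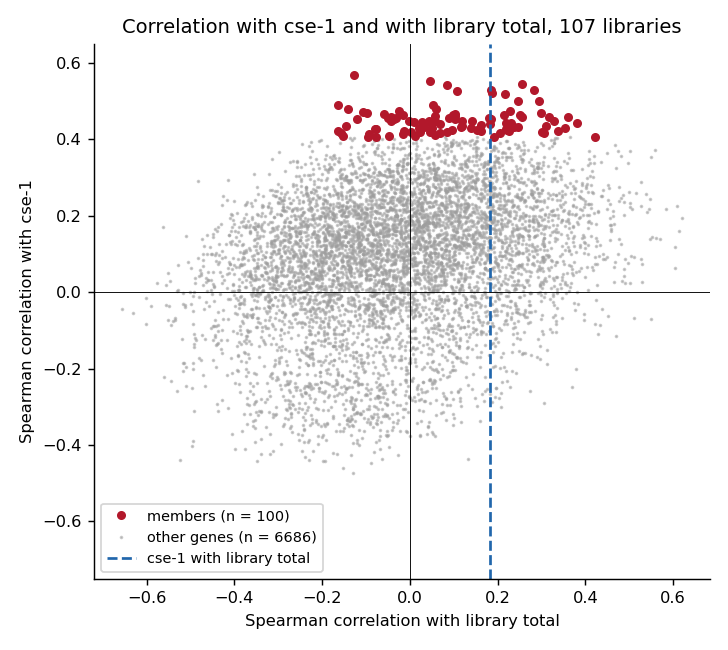
Spearman correlation of each gene with the library total (x axis) and with cse-1 (y axis) over all JW and D or FGSC libraries used, for the 100 members (red) and 6686 other genes (grey), with the value of cse-1 on the x axis as a dashed line (0.18). Members lie on both sides of 0 on the x axis, 72 to the right of it.

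The names of the strain series are the only grouping in the labels. In the limma fit of 72 JW against 35 D or FGSC libraries 0 members passed an adjusted p of 0.05, where 2.02% of all genes did. 8 members had an unadjusted p under 0.05, 3 of them higher in JW, where 18.4% of all genes had one. By voom on the recovered reads 1 member was called, of 82 genes in all. cse-1 differed by -0.02 on the log2 scale (SE 0.044, adjusted p = 0.806). The smallest p-values were those of NCU04558 (-0.22, SE 0.065, adjusted p = 0.0531), with medians of 29.9 RPKM in JW libraries and 34.997 RPKM in D or FGSC libraries, and of ada-2 (0.16, SE 0.053, adjusted p = 0.0721). NCU04652 (-0.10), NCU02163 (-0.36), NCU03590 (0.16) and NCU07257 (0.31) followed, none past the threshold. With the library total as a covariate 0 members passed as well, of 22 genes in all.

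Communication between germlings was available as a frequency for 24 strains. Of the libraries used, 22 belong to such strains (14 JW and 8 D or FGSC). The frequency was scored in germlings and the RNA came from mycelia, so the comparison joins 2 growth stages of a strain. In the limma fit of log2(RPKM + 1) on this frequency 1 member passed an adjusted p of 0.05, where 0.0442% of all genes did (3 of 6787, all with a positive slope). This member was NCU11873, at 39.2, 69.4 and 134 RPKM in JW libraries and 35.4, 65.6 and 117.015 RPKM in D or FGSC libraries, over all libraries used. Its slope was 0.13 per 10 percentage points (SE 0.023, adjusted p = 0.0241). The slope remained between 0.12 and 0.14 when each of the 22 libraries was left out in turn, with adjusted p of 0.0234 to 0.102, and 11 of these fits did not pass. Within the 14 JW libraries the slope was 0.13 with an adjusted p of 0.466, and with strain 2489 kept it was 0.06 with an adjusted p of 0.862. With the log2 library total as a covariate the slope was 0.12, with an adjusted p of 0.197. NCU11873 was also among the 20 members called on the library total (slope 0.17 per doubling, SE 0.052, adjusted p = 0.0092). Over all alternatives other than leaving out 1 library its adjusted p on frequency ran from 0.016 to 0.862.

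No other member passed. 25 members had an unadjusted p under 0.05, all with a positive slope, against 6.23% of all genes. In either direction, 658 of all 6787 genes had one. The number of members was 13 without 4455 (577 of all genes) and 13 without 4486 (498). It was 15 without 4457 (546) and 15 without JW196 (707). With strain 2489 kept it was 14 (473), after median centring 13 (658) and after quantile normalization 12 (657). Next to NCU11873 came NCU06654 (0.08, SE 0.023), mob-1 (0.11, SE 0.033) and mcb (0.09, SE 0.028), with adjusted p-values of 0.336, 0.336 and 0.37. atg-8 had a slope of 0.06 (SE 0.024) and amph-1 of 0.01 (SE 0.030). 96 of the 100 slopes were positive, against 54.4% of all genes, with a median of 0.04 in the members and 0.01 in all genes. cse-1 itself had a slope of 0.04 (95% interval -0.01 to 0.09, adjusted p = 0.573). It was 0.0068 in JW libraries alone, 0.0030 with strain 2489 kept and 0.066 (95% interval 0.014 to 0.12, adjusted p = 0.438) without JW238. The members follow cse-1 by choice, so that their slopes and the slope of cse-1 are not independent. Among the negative slopes NCU03728 (-0.04), NCU04268 (-0.02) and NCU09017 (-0.01) had the smallest p-values and none passed. Within the 14 JW libraries 67 slopes of members were positive, against 48.4% of all genes, and 6 had an unadjusted p under 0.05, against 513 of all 6787 genes. With the library total as a covariate 87 were positive, against 53.2% of all genes, and 7 had an unadjusted p under 0.05, against 429 of all 6787 genes.

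The library of strain 2489 took no part in the choice of members. It held 5132423 reads, fewer than most, and its median over genes was above that of each other library. cse-1 was at 123 RPKM there (362 reads), against 192 to 407 RPKM in the others, a difference of -1.28 from their median on the log2 scale. Of the 100 members, 62 were below their median in the other libraries, against 36.1% of all genes, and 20 were below the lowest of them, against 4.97% of all genes. Above the highest were 3 members (NCU06631, NCU04652 and NCU06654), against 10.9% of all genes. The 20 members below the lowest library all had short coding sequences, of 174 to 774 bases, and cse-1 has 573 bases. The 3 members above the highest had 2052 to 3192 bases. When the study called sequence variants, it mapped the reads of all strains to the genome of strain 2489 itself. The parts of coding length and of the genome used for mapping in these differences were not tested. The median difference of a member was -0.11, against 0.21 over all genes. After median centring 81 members were below their median, against 53.8% of all genes, and 29 below the lowest, against 8.77%. This is a single library, and no test was made.

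The members farthest below were NCU03889, with 24.3 RPKM in strain 2489 against 75.9 to 339 RPKM, NCU11873, with 14.7 RPKM against 35.4 to 134 RPKM, and NCU02163, listed at 0 against 1.53 to 26.6 RPKM. The neighbour of NCU03889, NCU03888, had 87.4 RPKM, inside its range of 57.9 to 237 RPKM. ada-2 had 42.99 RPKM in strain 2489 against 80.5 to 202 RPKM, and atg-8 had 496 RPKM against 591 to 1808 RPKM. mus-8, smco-7 and vma-11 were also below their lowest library, at 97.0, 50.5 and 142 RPKM. amph-1, tpm, gna-3, mcb, mob-1, stk-13, stk-49, cac-1 and sor-4 were inside their ranges.

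**Figure D4:**
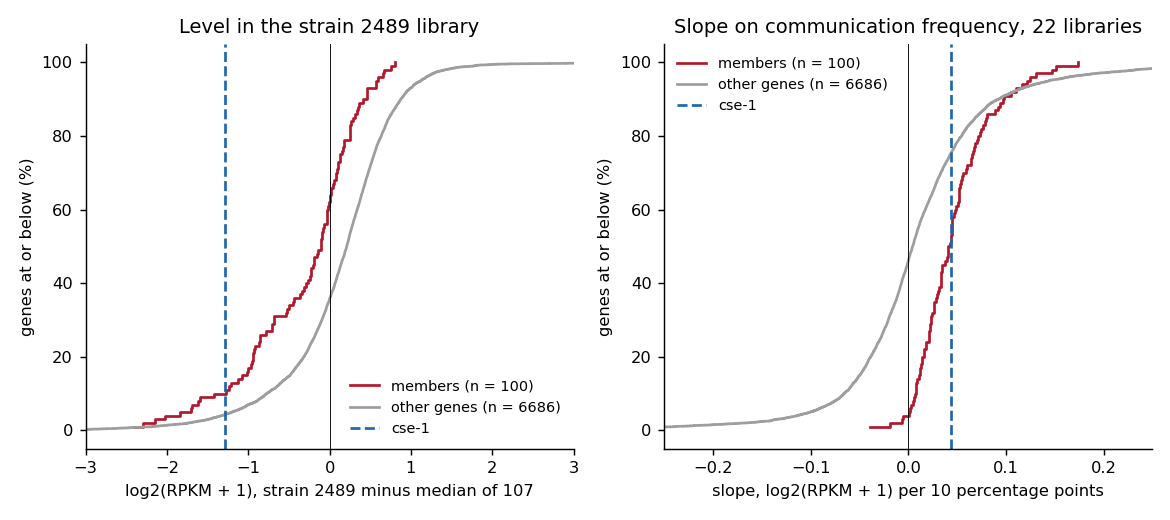
Left, cumulative share of genes (%) by the difference in log2(RPKM + 1) between the library of strain 2489 and the median of the other libraries. Right, cumulative share of genes (%) by the slope of log2(RPKM + 1) on communication frequency per 10 percentage points in 22 libraries. Red lines are the 100 members, grey lines 6686 other genes and dashed lines cse-1. The axes end at 3 on the left, beyond which 32 of the other genes lie, and at 0.25 on the right, beyond which 177 do. The members' median is -0.11 on the left and 0.04 on the right.

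Gene lists of related processes were set beside the members by their correlation with cse-1. Over all 6786 genes the median of this correlation was 0.11, 4996 genes were positive and 100 were members. None of the 3 genes tied to CSE1 was a member. The gene for the Pik1 homolog (NCU10397) had a correlation of 0.32 (rank 488), nfh-2 (NCU02806), a 14-3-3 protein gene, of 0.38 (rank 205), and its paralog nfh-1 (NCU03300) of 0.10 (rank 3660). The 18 association candidates of the study were chosen there on sequence variants at a permissive threshold, and not on these levels. Annotation and the availability of viable deletion strains also entered that choice. In the study, deletion of most of them did not change communication significantly. Among these 18 genes 0 were members, 17 had a positive correlation and the median was 0.23. sec15 (NCU00117), of the exocyst complex, had 0.33 (rank 454) and sec22 (NCU06708), a SNARE of membrane traffic between the endoplasmic reticulum and the Golgi, 0.30 (rank 657).

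The subunits of the vacuolar proton pump lay closest to the members as a list. All 14 had a positive correlation, where 4996 of all 6786 genes had one, and their median was 0.36. vma-11 was the member among them. vma-9, vma-4, vma-5 (NCU09897) and vma-6 (NCU03395) followed at 0.41, 0.41, 0.40 and 0.39, and vma-13 (NCU02746) was lowest at 0.16. The list of 4 genes of secretion and membrane traffic, which shares vma-8 with the pump list, held 0 members (median 0.28). Of 13 calcium signalling and transport genes 0 were members and all were positive (median 0.20), with cnb-1 (NCU03833), the regulatory subunit of calcineurin, highest at 0.37.

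Negative correlations prevailed in 3 of the lists made from gene symbols, which lack the genes without a symbol. The 7 ribosomal protein genes listed all had negative correlations with cse-1 (median -0.33), as had both ATP synthase genes listed (median -0.33). Of 18 listed genes of mitochondrial protein import 16 did (median -0.21). The 29 genes of respiratory complex I had a median of 0.05, with 17 positive, the 22 proteasome genes 0.17, the 19 cytoskeleton genes 0.10, the 9 histone genes 0.07 and the 10 heat shock genes -0.01. None of these lists held a member. They were made from symbol patterns alone, and a list can hold genes of other processes. The cytoskeleton list does not include the member tpm. The 3 sexual tissue markers had a median of 0.03 and the 2 heat stress markers of -0.01.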

How the data were processed

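The deposited table gives RPKM for 9733 genes and 112 strains. Scaling by coding length and by a total of reads on genes was inferred from these values. The submitters' processing notes list Bowtie 0.12.2. The counting tool and the annotation release remain not given in the sources used here. Every column carries a strain name, and 0 columns went unused. The steps of the deposited RPKM values gave whole reads (within 0.001) for 100% of 9696 genes above 0, and so the library totals. These totals are sums of the recovered reads on genes. 4 near-identical column pairs were averaged and strain 2489 was left out. Values were analysed as log2(RPKM + 1), with a mean of at least 5 RPKM. Fits used limma 3.58.1 (R 4.3.3) with a mean trend and Benjamini-Hochberg adjustment at 0.05 over all 6787 genes. The fits were tested on simulated data. A change of 1 on the log2 scale over the range of the covariate was recovered for 61% of 200 changed genes in the frequency fit, 98.5% in the series fit and 87% in the total fit. For a change of 0.5 these shares were 10.5%, 89% and 46.5%. The communication frequencies of the study entered only as a covariate. With 1 culture per strain, a p-value reflects strain, culture and library variation jointly.

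Genes named were cse-1, the 20 members with the highest correlation, the 5 genes on either side of the limit, members with a symbol, the 3 members with the smallest p in each direction of each fit, the genes tied to CSE1 with sec15 and sec22, and the 5 most negative genes. Other genes named, such as the extremes of the gene lists and of the between-member correlations, were chosen after their values were seen. Members and lists were chosen with earlier results of these data known. Symbols came from RefSeq (assembly NC12), which held 8914 of the 9733 IDs. Promoter motifs were not analysed here, and some members with a symbol and 1 gene list are not reported here.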

Additional observations from a re-analysis of the deposited data

How the results depend on the processing

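Of the 100 members, 42 were kept after median centring, 58 with the first principal component (18.3% of the variance) removed, 56 in JW libraries alone and 23 in D and FGSC libraries alone. The other lists kept 67 (Pearson) to 100 (pseudocounts), and leaving out each library in turn kept 82 to 99. On communication frequency, 0 members and 0 genes in all passed after median centring or quantile normalization, with 2489 kept, with the strain series as a covariate, in JW libraries alone and by voom. 0 members and 1 gene passed with the library total as a covariate, and 0 members and 2 genes without the 5 libraries least like the rest. Leaving out each of the 22 libraries in turn gave 0 to 1 members and 0 to 4 genes. Between the series, 1 member passed after median centring (205 genes in all), 2 after quantile normalization (232 genes) and 2 with 2489 kept (160 genes). With each column as its own library 1 member passed (207 genes), as did 1 without JW5 and JW7 (255 genes). Without 4452 it was 1 (155 genes), and by voom 1 (82 genes). The number of genes was 22 with the library total as a covariate and 69 without the 5 libraries least like the rest. With 2489 kept, the difference of cse-1 between the series turned to 0.011. In JW libraries alone, 0 members and 823 genes followed the library total. The cause of these changes was not tested.

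Small slopes on frequency changed sign when single libraries were left out. NCU03728 ran from -0.071 to 0.0052 (without JW238), NCU04268 from -0.030 to 0.011 (without 4448), and NCU09017 from -0.020 to 0.012 (without JW238), with a positive value also without 4448. NCU04268 was 0.0037 in JW libraries alone. The alternatives voom, without 4452, without the 5 libraries least like the rest, and the scaling of strain 2489 were chosen after seeing the data. No paired analysis was possible because each strain name stands on 1 column and the replicate numbers only count strains within a series. Genes of few reads (NCU07806 and NCU02163, medians of 31 and 34 reads) had the least precise values.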
